A study of Mus musculus with 4 samples.

Results

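Endogenous retroviruses of the ERV1 and ERVL families gave 422 potential adenosine-to-inosine (A-to-I) editing sites in lung endothelial cells (ECs). Of these, 267 lay in ERV1 and 155 in ERVL copies. Each is a mismatch to the reference genome, and no step beyond the rate limits below was taken against single nucleotide polymorphisms. The study called such mismatches potential sites and relied only on those whose rate differed between treated and untreated cells of a mouse. The sites were taken from the deposited site table as rows with repeat class LTR (long terminal repeat) and repeat family exactly ERV1 or ERVL that passed in at least 1 of 4 libraries. To pass in a library a site needed a depth of 5 reads, of which 3 altered, and an editing rate (altered over all reads) from 0.05 to 0.95. The table listed 12225 ERV1 and ERVL sites, 5635 ERV1 and 6590 ERVL, so 3.45% passed, against 2.01% of all 1205261 listed sites and 24200 passing sites in all. Because the reads of these 4 libraries chose the sites, their number and their rates are a description and carry no test.

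The ECs came from the lungs of 2 mice, EC1 and EC2, of the inducible ADAR1 knockout line (i-KO), which were C57/BL6 males of 2 weeks from separate litters. Both mice carried the floxed Adar allele, with exons 12 to 15 between the loxP sites, and an inducible Cre, labelled as EC-specific, whose promoter is not given in the sources used here. Cells were selected on beads with antibodies to CD31 and ICAM-2 and cultured. From each mouse 1 culture was left untreated (CON) and 1 was treated with the 4-OH form of tamoxifen (TM), which activates the Cre, so there were 2 libraries in each group, and the comparison was made within a mouse. TM therefore differed from CON by the agent as well as by the allele, and these cannot be told apart here. With 2 mice an exact two-sided sign permutation cannot go below p = 0.5, and no repeat culture of a mouse was present. Values for the 4 libraries are given below in the order CON then TM of EC1 followed by CON then TM of EC2, called library order.

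ADAR1 changes adenosine to inosine in double-stranded RNA, and sequencing reads inosine as guanosine. In the mouse most of its known sites lie in SINEs, short repeats whose inverted copies pair within a transcript. ERV1 and ERVL elements are remnants of retroviral insertions. Each consists of an internal part, whose repeat names end in -int here, between flanking LTRs, and many persist as a solitary LTR. MMVL30-int and RLTR6_Mm are the internal part and the LTR of VL30 elements (ERV1), and the MT2 names are LTRs of MERVL-related elements (ERVL).

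The sequences around potential editing sites are shown for MT2B, the ERVL name with the most sites (42). Bases were read 5′ to 3′ on the gene strand from GENCODE vM21 transcripts (build GRCm38, the same assembly as mm10), and capitals mark the member adenosines. Exon bases were available for 46 of the 422 sites on the gene strand, and the transcript base was A at each of them. The first window lies in the 3′ UTR of Rbm8a, a core protein of the exon junction complex, and the next pair in that of Pxmp4, a peroxisomal membrane protein. The remaining windows are in Lbhd1, Nip7 (ribosome biogenesis), Tcaim, Lmbrd2 and Mrps10 (a mitochondrial ribosomal protein). The windows outside Rbm8a and Lbhd1 were picked after their values were seen.
Rbm8a, chr3:96632446-96632474, plus strand: gtaacaatatgcAcAcctttAatcccagc
Pxmp4, chr2:154586373-154586401, minus strand: ggaAttaactctgtAgaccAggctggcct
Pxmp4, chr2:154586321-154586349, minus strand: ccagtgttgggattAaagacgtggactgc
Lbhd1, chr19:8890875-8890903, plus strand: tgcctttaatcccaAcatttgccaggcag
Nip7, chr8:107059468-107059496, plus strand: agctctataggttcAaggccagcctggtc
Tcaim, chr9:122836066-122836094, plus strand: cccagctcttgggaAgcagaggcaggtgg
Lmbrd2, chr15:9200812-9200840, plus strand: caccaggctgtggcAcatgcctttaatcc
Mrps10, chr17:47369858-47369886, plus strand: aggcgcacgcctttAatcccagcactcgg

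Several of these windows shared a stretch. The 10 letters found in most MT2B copies, CTTTAATCCC, were taken from these windows and searched on both strands of transcript windows with 50 bases on each side of the site. They occurred in 10 of 16 MT2B windows, from 6 of 9 copies, a count that their choice favours, and in 0 of the 29 windows of other ERV1 and ERVL sites. Among sites in SINEs, 294 of 1442 windows of the Alu family (B1 elements, 20.4%) held them, against 0 of 395 B2 windows. The share over all 4914 windows of passing sites was 6.33%, and most of the 311 that held them were the B1 windows. Of the other LTR families, 0 of 87 ERVK windows and 2 of 72 ERVL-MaLR windows held them, and 5 of 2492 windows outside repeats. Whether these MT2B stretches are B1 sequence was not tested. The search ran on exonic sites with a full window, so MT2B sites in introns were not searched.

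The base before the site on the gene strand was G at 5 of the 46 exonic sites (10.9%, 95% Wilson interval 4.73 to 23.0) and at 14% of 5671 exonic passing sites of the whole table. It was G at 0 of the 18 sites with a CON>TM call in a mouse and no opposite call (upper bound 17.6%), and at 4 of the 18 with a CON<TM call and no opposite call (22.2%, 9.001 to 45.2). These intervals overlapped, and they cover counting error only. In exonic SINE sites the share was 7.85% of 2026.

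In library order the passing sites numbered 168, 147, 192 and 228, the most in EC2 TM. Scaled to the total of the gene table, assigned or not, the yields per 1e+08 reads were 126, 112, 134 and 110.0 sites, so the CON library of each mouse gave the higher yield. Median depth at passing sites was 14, 13, 13 and 14 reads in library order, and 48 to 77 sites per library had 20 reads or more. The median editing rate was 0.469 in CON and 0.5 in TM of EC1, and 0.430 in CON and 0.441 in TM of EC2. In the SINE sites the medians ran from 0.281 to 0.308, lower than in each of these libraries. In the LTR families ERVK and ERVL-MaLR they ran from 0.469 to 0.5 and from 0.375 to 0.441. Over all passing sites they ran from 0.4 to 0.429.

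**Figure D1:**
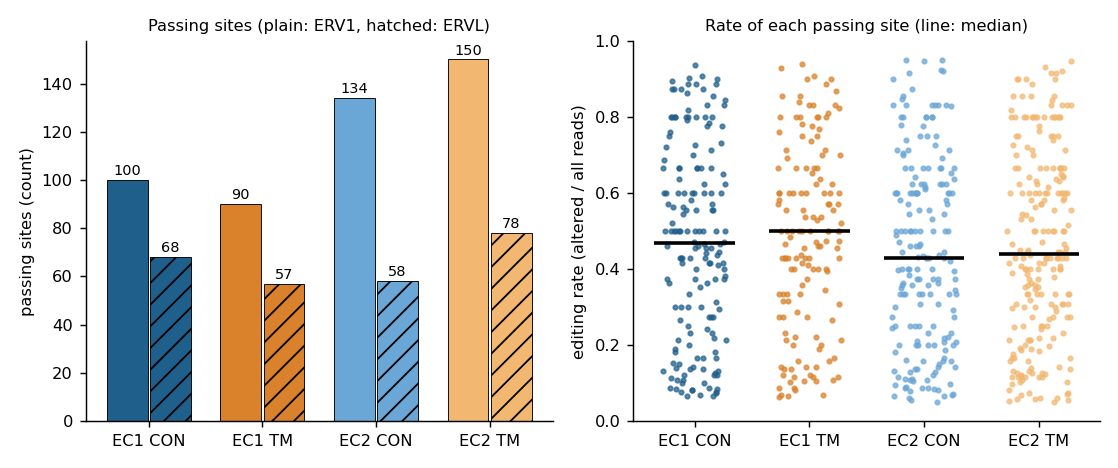
Passing ERV1 (plain) and ERVL (hatched) sites per library as counts (left), and the editing rate, altered over all reads, of each passing site with a line at the median (right). The medians lie between 0.430 and 0.5, and EC2 TM has the most passing sites of both families, 150 ERV1 and 78 ERVL.

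A site seldom passed in every library. Of the 422 sites, 248 passed in 1 library, 83 in 2, 43 in 3 and 48 in all 4. Over the 48 sites that passed in all 4, the median range of the 4 rates at a site was 0.248, and 24 had a rate of 0.4 or more in each library. The limits cut through a dense part of the table: 129 sites had a largest altered count of 3, and 1142 further ERV1 and ERVL sites reached 2. A further 442 sites had enough reads but a rate above 0.95, and 52 a rate under 0.05. Just inside the lower limit were an RLTR6_Mm site at Cyp2d10 (chr15:82363028, 3 of 60 reads in EC2 CON) and an MLT2F site at H2-Q6 (chr17:35427339, 3 of 59 in EC2 TM). Just outside were an MT2B position at Parp9 (chr16:35958781, 3 of 61 in EC1 TM) and an MMVL30-int position at Abi1 (chr2:23010757, 5 of 102 in EC2 TM).

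The sites lay in 236 repeat copies of 63 repeat names and were named for 194 genes. In the table's annotation 209 were intronic (49.5%), 100 lay 3′ distal and 99 5′ distal of a gene, 7 directly downstream, 6 in a 3′ UTR and 1 in an exon. Among all passing sites 63.4% were intronic and 8.87% in a 3′ UTR, against 1.42% here (0.653 to 3.07). Of the 206 distal or downstream sites, 62 lay inside a GENCODE vM21 gene on the same strand, 24 in a gene on the other strand only and 120 in no gene. The copy was antisense to the named gene at 58.5% of sites (53.8 to 63.1), against 49.5% of SINE sites. Over all passing LTR sites, these families included, 995 were antisense and 734 sense, so the lean was not particular to ERV1 and ERVL. Sites of 1 copy shared reads and are not independent, so these intervals are too narrow.

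Whether editing in these repeats depended on the floxed allele was asked by classing each site within a mouse. A site was CON>TM when its rate was higher in CON by at least 0.05, and CON<TM when higher in TM by at least 0.05, and the library with the higher rate had itself to pass on reads. In EC1, 95 of 236 sites passing in that mouse were CON>TM (40.3%) and 82 were CON<TM (34.7%). Over all passing sites of EC1, 43.5% were CON>TM and 28.6% CON<TM. In EC2, 109 of 316 were CON>TM (34.5%) and 129 CON<TM (40.8%), beside 37.2% and 33.4% of all passing sites. ERV1 and ERVL sites were therefore called in both directions in both mice, at shares near those of the whole table, with more CON<TM than CON>TM calls in EC2.

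In both mice, 29 of the 130 sites passing in both were CON>TM (22.3%) and 21 were CON<TM (16.2%), while 28 had opposite calls (21.5%). The shares of all 8380 such sites were 21.2% and 11.3%, and 18.8% had opposite calls. Of the SINE sites, 34.4% were CON>TM and 5.84% CON<TM in both mice. The classes rest on few reads, and 35 of the 95 CON>TM sites of EC1 and 43 of the 109 of EC2 were not listed in the TM library. Likewise 31 of the 82 CON<TM sites of EC1 and 49 of the 129 of EC2 were not listed in the CON library. An unlisted site had no altered read there, and its depth is unknown, so its rate of 0 may come from few or no reads.

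**Figure D2:**
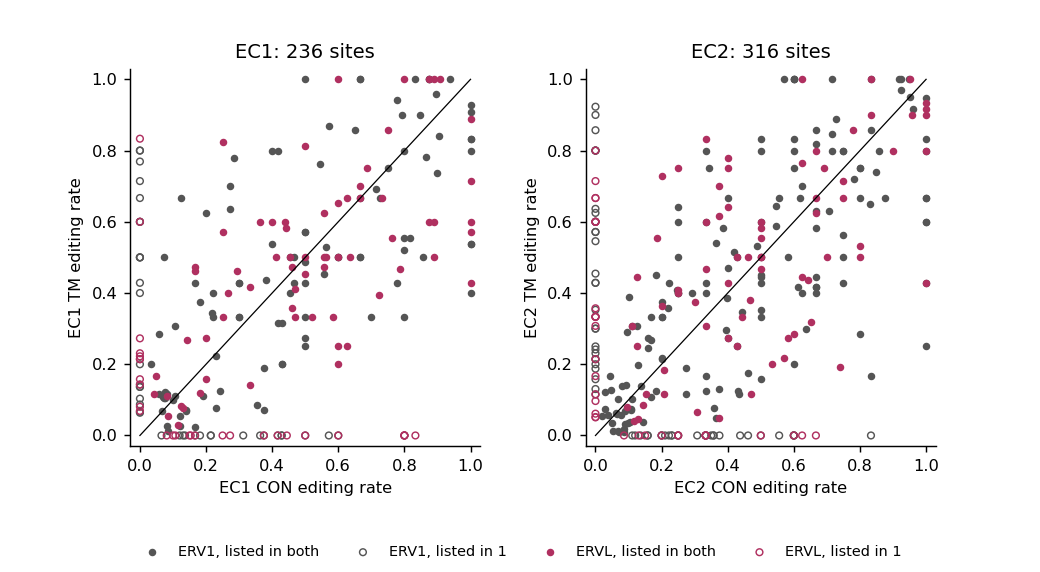
Editing rate in CON (x axis) and TM (y axis) of each ERV1 (grey) and ERVL (red) site that passed in EC1 (left, 236 sites) or EC2 (right, 316 sites). Open points on the axes were listed in 1 library of the mouse, with the rate of the other set to 0, and sites fall on both sides of the line of equal rates, with 95 CON>TM and 82 CON<TM in EC1 and 109 and 129 in EC2.

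Over the sites passing in a mouse, the mean rate of EC1 was 0.412 in CON against 0.398 in TM, and that of EC2 0.382 against 0.397. The difference, CON minus TM, was -0.0005 ± 0.0209 (SD, n = 2 mice), with opposite signs in the mice. It was -0.0129 ± 0.0028 for ERV1 and 0.0166 ± 0.0578 for ERVL. In SINEs, 8407 sites, it was 0.0635 ± 0.0083, in ERVL-MaLR (772 sites) 0.0205 ± 0.0269 and in ERVK (527 sites) 0.0287 ± 0.0213. Over all passing sites it was 0.0241 ± 0.0108. The values of SINEs, ERVK, all passing sites and ERV1 exceeded their SD, and those of ERVL, ERVL-MaLR and ERV1 with ERVL did not. The ERV1 value turned with the treatment of unlisted sites: with unlisted sites left out it was 0.0010 in EC1 and 0.0086 in EC2, higher in CON.

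A class assigned in 1 mouse was then read in the other mouse, whose reads had not assigned it. Only sites with at least 5 reads in both libraries of that other mouse were read. A site with no altered read in 1 of them was unlisted there and so was left out. Of the CON>TM sites of EC1, 46 could be read in EC2, where 23 were higher in CON by 0.05 and 13 higher in TM, with a median difference of 0.0429. Of those of EC2, 36 could be read in EC1, where 18 were higher in CON and 9 in TM, with a median of 0.0522. Over all sites called CON>TM in EC1, 1691 of 3368 were higher in EC2 CON and 699 in EC2 TM (median 0.0506), and of those of EC2 1459 of 3173 were higher in EC1 CON and 688 in EC1 TM (median 0.0357), shares like those in ERV1 and ERVL. The CON<TM sites of EC1 gave 13 higher in CON and 14 in TM of 37 in EC2 (median -0.0013), and those of EC2 gave 16 and 21 of 53 in EC1 (median -0.0122). In SINEs, 934 of 1557 CON>TM sites of EC1 were higher in EC2 CON and 196 higher in EC2 TM.

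The reads of all 4 libraries were tested together at sites with at least 5 reads in each, as the odds of an altered read in TM against CON with mouse as a block (edgeR quasi-likelihood test, Benjamini-Hochberg adjustment over 7407 sites). Of the 108 ERV1 and ERVL sites tested, 2 were lower in TM and 1 higher. The share called over all sites was 5.41%, with 374 lower and 27 higher in TM. Among the 108 sites, 12 had an unadjusted p under 0.05 (11.1%), beside 1110 of all 7407 (14.99%). Their median log2 odds ratio was 0.08, against -0.28 over all sites tested and -0.72 in 2645 SINE sites. Of those SINE sites, 261 were lower and 3 higher. A site with no altered read in a library was unlisted there and could not be tested. These values thus cover only sites with altered reads in all 4 libraries, and cannot show a loss of every altered read in TM.

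The first called site lay in an RLTR6_Mm copy 5′ distal of Gm6793, at chr2:75642446. Altered reads were 6 of 17 and 3 of 35 in CON and TM of EC1, and 19 of 44 and 13 of 105 in CON and TM of EC2, so both TM libraries were below both CON libraries. The log2 odds ratio was -2.44, with an adjusted p of 0.000517 in edgeR. Without the mouse block it was -2.43, with an adjusted p of 0.333.

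The second lay in a MERVL_2A-int copy at chr12:116390497, 3′ distal of D430020J02Rik and inside an exon that GENCODE vM21 gives to Esyt2, a membrane tether, on the other strand. The strand of the reads was not checked, so reads of both genes cannot be told apart. The reads were 13 of 18, 13 of 33, 15 of 23 and 15 of 47 in library order. Both CON libraries were above both TM libraries. The log2 odds ratio was -1.98, with an edgeR adjusted p of 0.0174 that became 0.412 without the block.

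The third, in an MMVL30-int copy 5′ distal of the intestinal phosphatase gene Akp3 (chr1:87076597), went the other way. Altered reads were 5 of 12, 8 of 10, 10 of 29 and 15 of 20 in library order, higher in both TM libraries. The log2 odds ratio was 2.46, with an edgeR adjusted p of 0.0228, and 0.410 without the block. A site 30 bases away in the same copy (chr1:87076627) was CON>TM in both mice, with 3 of 13, 1 of 13, 9 of 33 and 3 of 26. With any 1 library left out, none of these 3 sites was called, in fits that had no block because no residual degrees of freedom remained for one.

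Fisher's exact test on the reads of a mouse, two-sided and adjusted over all sites passing in it, called 0 of 236 sites in EC1, where 5 had an unadjusted p under 0.05. Over all EC1 sites 0.489% were called CON>TM and 0.0376% CON<TM. In EC2, where 1.27% of all sites were called CON>TM and 0.0301% CON<TM, it called 2 of 316, both CON>TM, and 14 had an unadjusted p under 0.05. These 2 were the RLTR6_Mm site (adjusted p = 0.0128, exact) and the Rbm8a MT2B site at chr3:96632460 (adjusted p = 0.00229, exact). A site unlisted in a library of the mouse could not be called, yet it counted in these totals and in the adjustment. Of the 236 sites of EC1, 170 were listed in both libraries, and of the 316 of EC2, 224. The test thus cannot show a loss of every altered read in TM.

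By repeat name the sites were uneven: 8 names held at least 13 sites each and 29 names 1 site. MMVL30-int, the largest, had 125 sites in 41 copies. Its calls went both ways, with 26 CON>TM and 22 CON<TM in EC1, 29 and 43 in EC2, and 10 and 8 in both mice. The mean rates were 0.377 in CON and 0.388 in TM of EC1, and 0.3796 and 0.427 in EC2. RLTR6_Mm, the LTR of the same elements, had 27 sites in 20 copies, with 4 and 1 calls in EC1 and 8 and 10 in EC2. All internal parts together, 187 sites, had a mean difference of -0.0466 ± 0.0109 (SD, n = 2 mice), higher in TM in both mice. All LTRs, 235 sites, had 0.0389 ± 0.0321. Without the 20 sites of the LTRIS_Mus copy described below, an alternative added after the values were seen, it was 0.0567 in EC1 and -0.0169 in EC2, so the direction of the LTRs in EC2 rested on that copy.

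**Figure D3:**
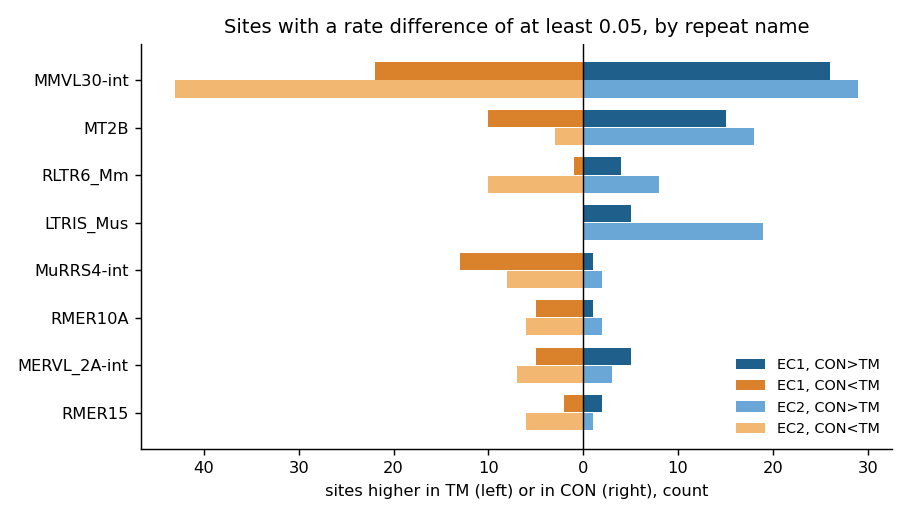
Number of sites with a rate difference of at least 0.05, to the right where CON was higher and to the left where TM was higher, for the 8 repeat names with the most sites, with 1 bar per mouse. LTRIS_Mus extends to the right alone in both mice. MT2B extends further to the right (15 against 10 in EC1, 18 against 3 in EC2), MuRRS4-int further to the left, and MMVL30-int both ways.

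MT2B, an ERVL LTR by its repeat name, had 42 sites in 30 copies and more CON>TM than CON<TM calls in both mice. Of its exonic windows, 10 of 16 held the stretch also found in B1 elements. In EC1 15 of 29 sites were CON>TM and 10 CON<TM, and in EC2 18 of 25 and 3, with 5 CON>TM and 0 CON<TM in both mice. The mean rate of EC1 was 0.299 in CON and 0.202 in TM, and that of EC2 0.340 and 0.172. The mean difference was 0.133 ± 0.0498 (SD, n = 2 mice).

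The MT2B difference was split by gene region. The 11 sites in a 3′ UTR or directly downstream of a gene, in 5 copies, were CON>TM at 9 of 9 in EC1 (mean rate 0.404 in CON and 0.00855 in TM). In EC2 they were CON>TM at 7 of 8, with 0 CON<TM (0.284 and 0.0785). Each of the 9 entered through EC1 CON and 0 passed in EC1 TM, while 7 passed in EC2 CON and 3 in EC2 TM, so these counts follow from the filter and are not support for a direction. The other 31 MT2B sites had 6 CON>TM and 10 CON<TM of 20 in EC1, and 11 and 3 of 17 in EC2. They leaned to opposite groups in the mice. Over all passing 3′ UTR sites, 773 of 1424 were CON>TM and 210 CON<TM in EC1, and 996 of 1791 and 241 in EC2. Of the 9 EC1 sites, 8 were unlisted in EC1 TM, and with unlisted sites left out MT2B had 4 CON>TM and 5 CON<TM in EC1, and 10 and 2 in EC2.

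**Figure D4:**
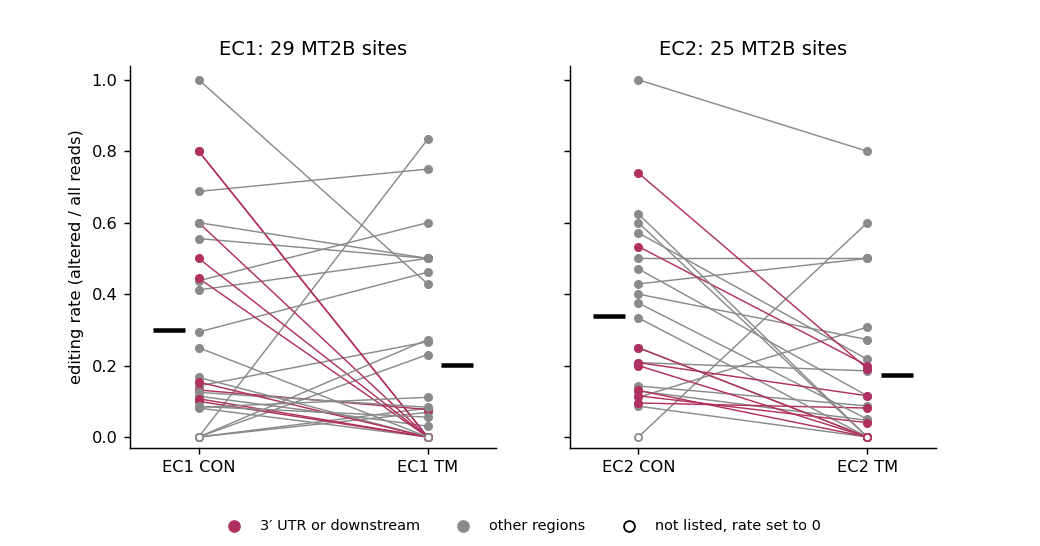
Editing rate of each MT2B site in CON and TM of EC1 (left, 29 sites) and EC2 (right, 25 sites), with lines joining the values of a site, red for 3′ UTR or downstream sites and black bars for the mean rate. Open points were not listed in that library, and the mean goes from 0.299 in CON to 0.202 in TM in EC1 and from 0.340 to 0.172 in EC2.

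In Rbm8a, 3 member adenosines lay within 9 bases of each other in an MT2B copy (chr3:96632432-96632544, sense to the gene). The middle one, chr3:96632460, had 13 of 26 altered reads in EC1 CON, 17 of 23 in EC2 CON and 9 of 47 in EC2 TM, and was unlisted in EC1 TM. Its neighbour 2 bases upstream had 4 of 26, 3 of 26 and 2 of 50 in the same libraries, and the one 6 bases downstream had 3 of 28, 5 of 24 and 6 of 52. The middle site had the highest rate of the 3 in each library that listed it. Rbm8a itself had 11, 14, 20 and 36 gene counts in library order (log2 fold change 0.27, SE 0.52, edgeR adjusted p = 0.844).

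In Pxmp4, 4 sites of an MT2B copy (chr2:154586240-154586413, antisense) were unlisted in EC1 TM. The deepest, chr2:154586335, had 4 of 9 reads in EC1 CON, 8 of 15 in EC2 CON and 1 of 5 in EC2 TM. The other three had 5 reads in EC1 CON, 6 in EC2 CON and 3 in EC2 TM, too few to order the libraries. At Lbhd1, which the table names 1810009A15Rik, the site chr19:8890889 had 5 of 38, 1 of 13 and 5 of 25 in EC1 CON, EC1 TM and EC2 CON, and was unlisted in EC2 TM. Nip7 had 2 of 13 in EC1 CON and 3 of 12 in EC2 CON, and Tcaim 3 of 23 in EC2 CON, with no TM library listing either.

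LTRIS_Mus, an ERV1 LTR, contributed 20 sites from a single copy of 585 bases on the minus strand (chr5:25226272-25226856). The table placed it 3′ distal of Galntl5, which had 0 counts. In GENCODE vM21 it lay in an intron of Galnt11, an enzyme that starts O-linked glycosylation, antisense to that gene. In EC1 CON 25 of 188 reads were altered over the member sites it listed, with 5 passing, and in EC2 CON 88 of 353, with 19 passing. The site rates ran from 0.04 to 0.214 in EC1 CON and from 0.105 to 0.556 in EC2 CON. Neither TM library listed any of the 20, and EC2 TM listed 1 other position of the copy. All 20 thus entered through CON alone, so their CON>TM calls follow from the filter and are not support for a direction.

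The sites of the LTRIS_Mus copy were clustered, and each had another member within 20 bases, against 22.04% of all 422 sites and 31.3% of the MT2 LTR sites. Galnt11 had 28, 10, 31 and 19 counts in library order (log2 fold change -1.40, SE 0.48, edgeR adjusted p = 0.0707). Depth over the copy in TM is unknown, and the part of Galnt11 level in the result was not tested. Without the copy, an alternative added after the values were seen, 90 of 231 sites were CON>TM in EC1 and 90 of 297 in EC2, with 25 in both mice and a mean difference of -0.0120 ± 0.0321.

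**Figure D5:**
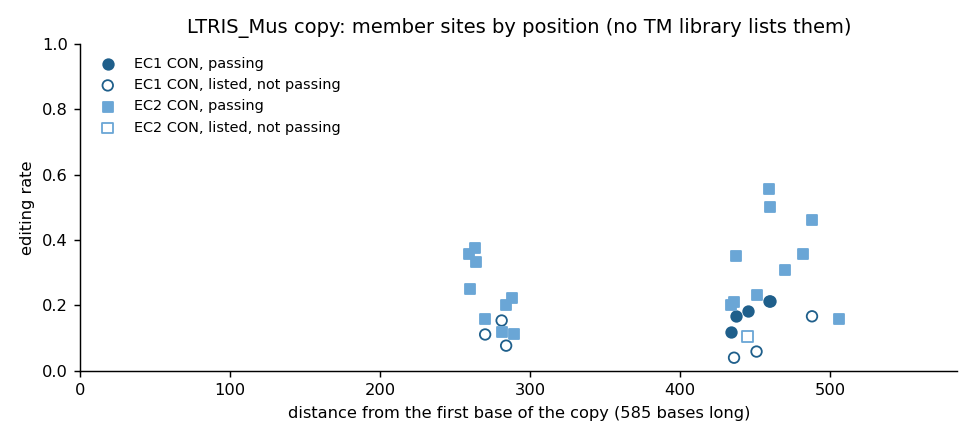
Editing rate of the LTRIS_Mus sites in EC1 CON (circles) and EC2 CON (squares) against the distance in bases from the first base of the copy, filled where the site passed. The 20 sites fall in 2 clusters, with rates up to 0.214 in EC1 CON and 0.556 in EC2 CON.

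MuRRS4-int, an internal ERV1 part, had higher mean rates in TM. Of its 17 sites, 16 lay in 1 copy on chromosome 6 (chr6:89860201-89865369), which the table placed 5′ distal of the vomeronasal receptor gene Vmn1r42 and GENCODE vM21 in exons of Vmn1r43. The mean rate over those 16 was 0.388, 0.546, 0.253 and 0.354 in library order, so TM was higher in both mice, although by summed reads EC2 was close, with 31 of 84 in CON and 86 of 222 in TM. In EC1, 12 of the 16 were CON<TM and 1 CON>TM, and in EC2 8 and 2. The deepest of the 4 called CON<TM in both mice, chr6:89865234, had 8 of 14, 20 of 23, 4 of 10 and 8 of 17 altered reads in library order. Median depth was 11, 10.5, 6 and 13.5 reads, and an unlisted site counted as 0. Of the 17 MuRRS4-int sites, all 16 that passed in EC1 did so in TM and 11 in CON. In EC2 all 11 passed in TM and 6 in CON. The higher rates in TM thus follow in part from the filter and are not support for a direction.

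Other copies with many sites differed in level and direction. A MERVL_2A-int copy on chromosome 12 (chr12:116386112-116390833) with 11 sites had mean rates of 0.674, 0.700, 0.660 and 0.656 in library order, which spanned 0.656 to 0.700. An MMVL30-int copy in an Abi1 intron (chr2:23010332-23013175, sense) with 11 sites had 0.125, 0.145, 0.106 and 0.0817. Abi1, a subunit of the WAVE actin-regulating complex, had the deepest of the sites called CON<TM in both mice, chr2:23012950, with 5 of 23, 10 of 29, 9 of 70 and 23 of 117. An MMVL30-int copy in an intron of Gm14351 on chromosome X had 8 sites and mean rates of 0.6525, 0.8215, 0.742 and 0.809 in library order, with unlisted sites counted as 0. Its summed altered reads were 70 of 107, 75 of 109, 112 of 119 and 112 of 117, so within each mouse the summed rates were close. A copy near Ube4b with 6 sites had summed altered reads of 24 of 129, 8 of 92, 24 of 166 and 22 of 105, higher in CON in EC1 and higher in TM in EC2. The MMVL30-int copy near Tango6 had the highest mean rates of the 12 copies with the most sites, from 0.769 to 0.918. In all, 16 copies had 5 or more sites and held 126 of the 422, and 11 of the 16 were MMVL30-int. Higher-editing copies were those with more passing sites and a higher mean rate in CON than in TM. Of the 236 copies they numbered 44 in EC1, 38 in EC2 and 8 in both, and lower-editing copies 37, 64 and 11. The share over all repeat copies was not computed, so these counts are a description only.

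The deepest sites called CON>TM in both mice lay in an MMVL30-int copy between 2210016L21Rik and 4930519G04Rik on chromosome 5. At chr5:114892015 the altered reads were 112 of 124, 111 of 132, 158 of 186 and 206 of 278 in library order, rates of 0.903, 0.841, 0.8495 and 0.741. Both CON libraries were above both TM libraries, and the edgeR adjusted p was 0.0788. Its neighbour chr5:114891941 had 32 of 37, 36 of 46, 49 of 59 and 63 of 97. At Ankrd7 the site chr6:18844994 had low rates, 3 of 37, 1 of 39, 5 of 57 and 1 of 59. In an MT2B1 copy in an intron of the actin-binding gene Rai14, chr15:10654587 had 12 of 23, 8 of 24, 9 of 14 and 7 of 16, and chr15:10654590 had 4 of 22, 3 of 25, 6 of 14 and 4 of 16.

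Other deep sites were CON<TM in both mice, all in MMVL30-int copies. Fam32a (chr8:72236288) had 8 of 20, 14 of 26, 18 of 33 and 20 of 31 altered reads in library order. Ankrd12 (chr17:66019293) had 2 of 19, 4 of 13, 3 of 19 and 3 of 11. At Ahcy, the enzyme that breaks down S-adenosylhomocysteine, chr2:155016440 was unlisted in EC1 CON and had 3 of 22, 1 of 35 and 4 of 33 in the others. The read test called neither Fam32a nor Ankrd12 and was not run at Ahcy, which was unlisted in a library.

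The gene table placed 0.823% to 0.858% of its reads on genes, 1095488 to 1778732 counts per library, with 92.8% to 93.9% on no gene. The study reported default settings for its pipelines but did not name the strand setting of the counting, which could not be checked. Whether these counts hold the sense reads of a gene was not tested, which limits every gene count given here as a measure of gene level. Adar had 9, 47, 16 and 71 counts in library order, higher in both TM libraries (log2 fold change 1.87, SE 0.45, edgeR adjusted p = 0.00609). The call was lost in DESeq2 (adjusted p = 0.0835) and without EC1 CON (0.109). The counts cover all exons of the gene and so do not check the deletion of exons 12 to 15. Of the endothelial markers, 0 of 8 tested passed (edgeR), and the summed level of the list was 1169 to 1527 CPM, against 69.2 to 99.5 CPM for leukocyte, 472 to 543 for fibroblast and smooth muscle and 1.64 to 6.18 for epithelial markers. Among the endothelial markers, Cdh5 had 448, 414, 362 and 489 CPM in library order. Icam2, at 6.18 to 10.6 CPM, and Vwf, at most 1.83, were too low to be tested. Tagln made up most of the fibroblast and smooth muscle sum, with 500, 487, 452 and 428 CPM in library order, a level near that of Cdh5. Acta2 had 27.0 to 39.2 CPM, and Col1a1, Col1a2, Dcn, Pdgfra and Pdgfrb at most 8.18 in any library. Fewer cells of a type and less RNA per cell cannot be told apart in such libraries.

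Of 30 genes that silence endogenous retroviruses, 28 were in the table and 19 tested, with 1 up and 1 down at an adjusted p of 0.05, where 7.75% of 7899 genes were called in either direction (347 up, 265 down). The list median log2 fold change was -0.01, against 0.00 over all genes. Daxx, a chaperone of histone H3.3, rose from 28 and 25 counts in CON to 216 and 272 in TM (log2 fold change 2.87, SE 0.35, edgeR adjusted p = 7.22e-07). Sumo2, a modifier used in silencing, had 90, 31, 83 and 65 counts in library order (-1.25, SE 0.35, edgeR adjusted p = 0.0220, and 0.116 in DESeq2), and its call was also lost without EC1 CON, EC1 TM or EC2 CON (0.105, 0.122 and 0.0736). Setdb1, the histone methyltransferase that marks these elements, had 182, 204, 148 and 261 counts (adjusted p = 0.835 in edgeR), and its cofactor Trim28 48, 48, 66 and 92 (0.931).

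Genes that restrict retroelements rose at 5 of 6 tested, with 0 called down (median log2 fold change 2.03), where 7.75% of all genes were called. Trim12c, a TRIM protein, went from 237 and 171 counts in CON to 821 and 1171 in TM (1.94, SE 0.30, edgeR adjusted p = 2.64e-05). Samhd1, which breaks down the nucleotides needed for reverse transcription, went from 2 and 5 to 29 and 59, Zc3hav1, an RNA-binding antiviral protein, from 11 and 16 to 64 and 113, and Bst2, which tethers virions, from 18 and 16 to 70 and 123. Trex1, a cytosolic DNA exonuclease, went from 111 and 67 to 268 and 291, and its call was lost without EC1 TM (edgeR adjusted p = 0.0848) or EC2 CON (0.138). Every TM library was above both CON libraries for each of the 5.

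Sensors of double-stranded RNA rose at 4 of 7 tested, with 0 called down, where 7.75% of all genes were called in either direction. Of those not called, Dhx58 was lower in both TM libraries, with 49, 27, 63 and 35 counts in library order. Its log2 fold change was -1.20 (SE 0.39, edgeR adjusted p = 0.0527). Ddx58 (0.17) and Eif2ak2 (0.88) had log2 fold changes above 0. Ifih1, which encodes MDA5, had 2, 36, 0 and 53 counts in library order (edgeR adjusted p = 2.64e-05). Zbp1 had 0, 19, 0 and 48 (3.44e-05), Oas1a 0, 12, 0 and 31 (0.000470) and Tlr3 2, 34, 6 and 29 (0.00666). The Tlr3 call was lost in DESeq2 (0.0961) and without EC1 CON (0.0746) or EC1 TM (0.173). The editing enzyme Adarb1, the other catalytic ADAR, had 24, 13, 27 and 21 counts (log2 fold change -0.95, SE 0.48, edgeR adjusted p = 0.267).

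Of the 194 genes named for a site, 93 could be tested, and 8 rose in TM. In either direction 9.68% of them were called, against 7.75% of all genes, and with mouse as a block 17 were called, where the block called 1184 of all 7899 genes (14.99%). The 8 were Abl2, Arap2, Cmpk2, Ddx24, Iqgap2, Parp9, Sp100 and Zcchc2, named here after their values were seen. Of these, Arap2, Cmpk2 and Zcchc2 were named for distal sites only. Among genes with a site in an intron, exon or 3′ UTR, 71 could be tested, with 5 up and 1 down (8.45% called). Parp9, an interferon-induced ADP-ribosyltransferase family member, went from 164 and 259 counts in CON to 2453 and 3630 in TM (log2 fold change 3.49, SE 0.33, edgeR adjusted p = 6.07e-09). Cmpk2, an interferon-induced nucleotide kinase, went from 1 and 5 to 86 and 157, and Sp100, a nuclear body protein, from 1 and 1 to 16 and 65. The calls of Ddx24 and Zcchc2 were lost in DESeq2 (adjusted p of 0.135 and 0.300) and without some of the libraries, that of Sp100 without EC2 TM (0.169), and that of Arap2 without EC1 CON, EC1 TM or EC2 CON (0.0745 to 0.0903).

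Sites named for genes that rose were often seen in TM alone. Of the 13 sites named for the 8 genes, 8 were listed in neither CON library, against 46 of all 422 (10.9%), which include them. The genes were picked for their rise in TM, and a site unlisted in both CON libraries can pass only through TM. The count thus follows in part from these choices and is a description with no test. At Parp9 the MT2B sites chr16:35958747 and chr16:35958771 had 4 of 58 and 5 of 62 altered reads in EC1 TM and were unlisted elsewhere. Depth in the unlisted libraries is unknown, and the part of the gene's level in the class of these sites was not tested.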

How the data were processed

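Ribosome-depleted RNA (KAPA RNA HyperPrep with RiboErase) was sequenced on a NovaSeq6000. Per the submitters' processing notes, Trimmomatic 0.38, STAR 2.6.1a (build mm10) and HTSeq 0.11.2 were used by the authors, who deposited raw counts per gene. For the site table the authors ran BCFtools mpileup, kept A>G on plus-strand and T>C on minus-strand genes, annotated repeats with RepeatMasker, and deposited altered and total read counts and the editing rate as a fraction. A library lists a site only when it has at least 1 altered read, so a deposited rate of 0 carries no depth, and the per-site depth sets the precision. Reads had no molecular identifiers, so intervals (95% Wilson) cover counting error only.

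Here the table was filtered to the 422 sites, and each was classed by the study's rate difference of 0.05. A Fisher's exact test used the reads of a mouse. A quasi-likelihood test in edgeR 4.0.16 (R 4.3.3) used altered and reference counts of the 4 libraries with mouse as block. Gene counts were tested with edgeR (filterByExpr, TMM, condition only), and DESeq2 1.42.0 was the alternative. No other per-sample columns were present. CON and TM of a mouse are the same animal and so are paired, and their gene deviations from the group means correlated at 0.156 over 7899 genes. Regions, exons and bases were also looked up in GENCODE vM21. The table's own annotation of the named gene was kept unless vM21 is named.

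The members, the lists and the alternatives were chosen with earlier results of these data known. Sites and genes named were the 12 copies with the most sites (at least 2 each), up to 12 CON>TM and 6 CON<TM sites of both mice by reads, up to 10 sites passing a read test, the 8 repeat names with most sites, their genes, the 2 sites nearest each side of a limit, and list genes past the test. Names outside the rule are given as such, and 1 gene is not reported here. Scripts were tested on simulated data with 200 changed items: 172 genes of 4-fold change were recovered among 7781 with 9 false calls. In the read test 82 of the 200 changed sites were recovered among 7407, with 5 false calls. Those sites were drawn from ones with at least 20 reads in each library, while median depth at passing ERV1 and ERVL sites was 13 to 14. The read test can therefore miss changed sites. In Fisher's test of EC1, 143 sites were recovered among 11912, with 4 false calls.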

Additional observations from a re-analysis of the deposited data

How the results depend on the processing

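Several directions turned, and the cause was not tested. The mean difference over all sites, near 0, was 0.0090 with at least 10 reads and 0.0083 with only sites listed in both libraries, and the ERV1 mean was then above 0 in both mice. More EC2 sites were CON<TM than CON>TM, but not with at least 20 reads (below). MT2B in EC1 had 15 CON>TM and 10 CON<TM, but 4 and 5 with only sites listed in both and 3 and 5 with at least 5 altered reads. With at least 10 reads, EC1 had 61 CON>TM sites, EC2 had 85 CON<TM, and 13 were CON<TM in both mice. At least 20 reads left 147 passing sites, with 33, 35 and 9 CON>TM (EC1, EC2, both) and 22, 31 and 4 CON<TM, and the mean difference was 0.0340. At least 5 altered reads left 221 sites, with 45, 58 and 15 CON>TM and 36, 65 and 10 CON<TM. Only sites listed in both libraries gave 60, 66 and 16 CON>TM and 51 and 80 CON<TM (EC1, EC2). A difference of 0.10 left 18 CON>TM and 13 CON<TM in both mice. Fisher's test called 0, 2 and 0 CON>TM and 0, 0 and 0 CON<TM, with 5 sites in EC1 and 14 in EC2 at an unadjusted p under 0.05. The base before the site was G at 0% of CON>TM sites. Each mouse alone gave a mean difference of -0.0153 (without EC1) or 0.0143 (without EC2).

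The read test without the replicate block called 0 ERV1 and ERVL sites and 0 of all 7407 sites, with 6 and 627 at an unadjusted p under 0.05. Leaving out each library called 0 of either, from 0 to 0, in fits without the block, with 4 members at an unadjusted p under 0.05 in each. With at least 10 reads in all libraries it called 3 members and 427 sites. The gene test with mouse as replicate block called 1184 genes (600 up, 584 down) against 612 (347 up, 265 down), and DESeq2 365. Leaving out 1 library gave 436 to 574 genes. Called genes among those named for a site ranged from 5 to 17 over these settings. The MT2B mean difference was 0.0608 ± 0.125 (SD, n = 2 mice) with sites weighted by reads, 0.101 ± 0.173 with at least 5 altered reads and 0.0842 ± 0.0859 with only sites listed in both, each within its SD, and at most 0.149 under other limits.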
